A study of Homo sapiens with 12 samples.

Results

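AP-1 and immediate early transcription factors were followed in papillary thyroid cancer cells transfected with siRNA against TRIM35. They comprised the FOS family (FOS, FOSB, FOSL1, FOSL2), the JUN family (JUN, JUNB, JUND), ATF3 and EGR1. They were taken by gene symbol from the deposited table, which held 1 row for each of the 9 among 61806 genes, and all 9 had enough reads to be tested. RNA came from the established papillary thyroid cancer lines K1 and TPC-1, both labelled wild type, harvested 24 h after transfection. Cells of each line received either siRNA against TRIM35, a TRIM-type ubiquitin ligase, or a negative control siRNA, which gave K1 TRIM35 siRNA, K1 control, TPC-1 TRIM35 siRNA and TPC-1 control groups of 3 libraries each, 12 in all. No source used here gives the siRNA sequences or says whether the 3 libraries of a group were separate cultures; p-values thus reflect only the scatter among libraries, possibly technical. TPC-1 control library 3 carries another line's name in its title but TPC-1 in its other labels, and was used as TPC-1. Each line stands for 1 tumour, so a difference between K1 and TPC-1 is a difference between these 2 lines.

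FOS and JUN proteins pair through leucine zippers to form AP-1, which binds the TRE sequence TGAGTCA in promoters and enhancers of genes for growth, invasion and inflammation. JUN proteins can also pair among themselves, whereas FOS proteins need a JUN or another zipper partner. Most of these genes are immediate early genes, switched on within minutes of growth factor or stress signals through MAP kinases and the serum response factor SRF, and their mRNAs decay fast. Papillary thyroid cancers commonly carry alterations that keep the MAP kinase pathway active, and FOSL1 and EGR1 are known outputs of that pathway.

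The promoters of 4 members are shown: EGR1 for its SRF sites, FOS as the founding AP-1 subunit, FOSL2 as the member that differed most between the lines, and JUND as the one that varied most between libraries, with the highest promoter GC content of the 4 (77.0%, against a median of 58.7% over all promoters). RefSeq promoters on GRCh38.p14, 250 bases before to 50 after the annotated start, were found for 8 of the 9 members, FOSL1 excepted, and motifs were searched on both strands. Positions are counted from the first transcribed base, negative before it, and capitals mark the matched motifs. EGR1 (chr5:138465229-138465528, plus strand) held 2 CArG boxes, the binding site of SRF, at positions -105 and -83; FOS (chr14:75278578-75278877, plus strand) held a TATAAA box at -33. JUND (chr19:18281573-18281872, minus strand) held the cyclic AMP response element TGACGTCA at -200, and FOSL2 (chr2:28392608-28392907, plus strand) held a TRE at 5, written TGACTCA on the gene's strand.
EGR1: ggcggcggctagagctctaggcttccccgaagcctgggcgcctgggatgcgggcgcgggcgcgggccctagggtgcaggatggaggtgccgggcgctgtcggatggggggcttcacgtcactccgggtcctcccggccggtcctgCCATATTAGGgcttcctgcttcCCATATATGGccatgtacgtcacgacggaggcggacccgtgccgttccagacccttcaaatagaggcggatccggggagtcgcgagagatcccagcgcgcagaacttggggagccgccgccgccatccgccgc
FOS: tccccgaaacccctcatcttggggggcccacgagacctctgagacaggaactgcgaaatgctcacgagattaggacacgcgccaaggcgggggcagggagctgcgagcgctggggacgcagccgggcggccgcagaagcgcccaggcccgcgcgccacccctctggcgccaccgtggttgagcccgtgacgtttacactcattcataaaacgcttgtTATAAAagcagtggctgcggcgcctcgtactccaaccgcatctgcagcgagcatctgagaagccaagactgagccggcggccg
JUND: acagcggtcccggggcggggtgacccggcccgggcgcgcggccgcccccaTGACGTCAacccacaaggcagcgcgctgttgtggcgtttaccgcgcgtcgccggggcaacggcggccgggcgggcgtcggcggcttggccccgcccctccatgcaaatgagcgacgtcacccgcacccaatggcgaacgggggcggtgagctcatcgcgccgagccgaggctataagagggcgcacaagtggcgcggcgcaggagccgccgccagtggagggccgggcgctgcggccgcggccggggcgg
FOSL2: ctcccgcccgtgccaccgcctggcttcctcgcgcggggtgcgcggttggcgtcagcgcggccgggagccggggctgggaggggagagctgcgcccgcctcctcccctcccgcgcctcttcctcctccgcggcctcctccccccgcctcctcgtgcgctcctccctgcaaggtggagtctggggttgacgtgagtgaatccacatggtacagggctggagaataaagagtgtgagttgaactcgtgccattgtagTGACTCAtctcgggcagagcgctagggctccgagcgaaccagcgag
A CArG box was present in 1.29% of the 35116 promoters of the same length, the TRE in 4.95%, the cyclic AMP response element in 1.85% and TATAAA in 11.5%. FOSB and JUNB also held TATAAA, at -30 and -31, and ATF3 held it at -230 of the second of its 2 listed promoters. Of the 2 EGR sites searched, GCGTGGGCG (0.795% of promoters) and GCGGGGGCG (5.07%), neither was in these windows in the 8 members. A match is a description of letters in a window, and binding was not measured.

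Library totals ran from 16705044 to 22928861 counts. TRIM35, the targeted gene, measured 1.20, 1.49 and 1.53 FPKM in K1 siRNA libraries and 1.51, 1.85 and 1.47 FPKM in K1 controls, and 2.34, 2.56 and 2.58 FPKM in TPC-1 siRNA libraries and 2.86, 2.91 and 3.06 FPKM in TPC-1 controls. The groups overlapped in K1 and not in TPC-1, and edgeR's quasi-likelihood test called the difference in neither line (87.9% of control in K1 and 84.8% in TPC-1, adjusted p = 1 in each). Of the thyroid lineage markers, PAX8 was present at 95.5 to 129 FPKM in K1 and 17.8 to 20.7 FPKM in TPC-1, while the lineage factor NKX2-1 had 0 counts in all 12 libraries and TSHR and SLC5A5 averaged under 0.1 FPKM in every group. Of the 10 thyroid markers 4 were tested, and in controls PAX8, FOXE1 and TG were called higher in K1 (log2 2.46, 3.01 and 3.48) and HHEX lower (-0.71, lost without TPC-1 control library 1, at -0.41, and without both K1 libraries 3 and both TPC-1 libraries 1, at -0.34). TG averaged under 0.1 FPKM in both TPC-1 groups. The TG call in controls was kept in 23 alternative settings, with log2 values from 0.178 to 5.48. These are not all on 1 scale, since limma on log2(FPKM + 1) understates changes of low genes. In edgeR fits that each left out 1 library the value ran from 2.93 to 5.48, so its size is uncertain. FPKM are counts scaled by exonic length and by library size, as deposited. The length is 1 value per gene whichever transcripts the cells make, such as 5553 bases for FOSB (13 annotated transcripts) and 3624 for JUN (1 transcript). Levels of different genes can thus be set side by side only approximately. Summed levels of the 6 epithelial markers were 50.3 to 77.6 FPKM in K1 and 38.2 to 47.7 FPKM in TPC-1, with the cadherin CDH1 under 0.1 FPKM throughout. Summed fibroblast markers (9 genes) lay at 10.4 to 11.6 FPKM in K1 and 1.83 to 2.56 FPKM in TPC-1, leukocyte markers (8 genes) at 5.11 to 6.57 FPKM in K1 and 0.44 to 1.03 FPKM in TPC-1, and endothelial markers (6 genes) at 1.47 to 2.04 FPKM in K1 and 0.19 to 0.38 FPKM in TPC-1, with COL3A1, CD3E, CDH5 and CLDN5 under 0.1 FPKM in every group. Called higher in K1 controls were, among others, FAP (log2 9.44), THY1 (6.26), PDGFRA (4.0), CD14 (5.49) and KDR (5.36). These 5 genes averaged under 0.1 FPKM in TPC-1. PDGFRB (-2.35) and TEK (-1.99) were called lower. In controls 3 of 5 tested epithelial, 5 of 7 fibroblast, 3 of 4 leukocyte and 1 of 3 endothelial markers were called higher in K1, and 0, 1, 0 and 1 lower. Of all genes 35.8% were called higher and 32.1% lower in controls (67.9% in all), so a call of a marker, thyroid markers included, was common. The marker sums move with the difference between the lines, and their part in it was not tested.

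All 9 members were well expressed in both lines, and the lines ordered them differently. In K1 the top pair was JUN and EGR1, followed by FOSL1 and FOS, with ATF3 lowest; in TPC-1 FOSL1 stood at the top and JUNB at the bottom. On the FPKM scale the 9 genes summed to 793, 752 and 812 in K1 siRNA libraries and 911, 749 and 742 in K1 controls. In TPC-1 the sums were 554, 414 and 443 in siRNA libraries and 460, 431 and 428 in controls. Every K1 sum lay above every TPC-1 sum, and siRNA and control sums overlapped within each line. Each member's mean lay above those of 89.6% to 99.5% of the genes with reads in the same group. Neighbours in the order mostly overlapped: in K1 controls only the steps from FOS to FOSL2 and from FOSB to JUNB were wider than the spread of libraries. In TPC-1 controls the steps from FOSB to FOS, from FOS to ATF3 and from ATF3 to FOSL2 were.

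**Figure D1:**
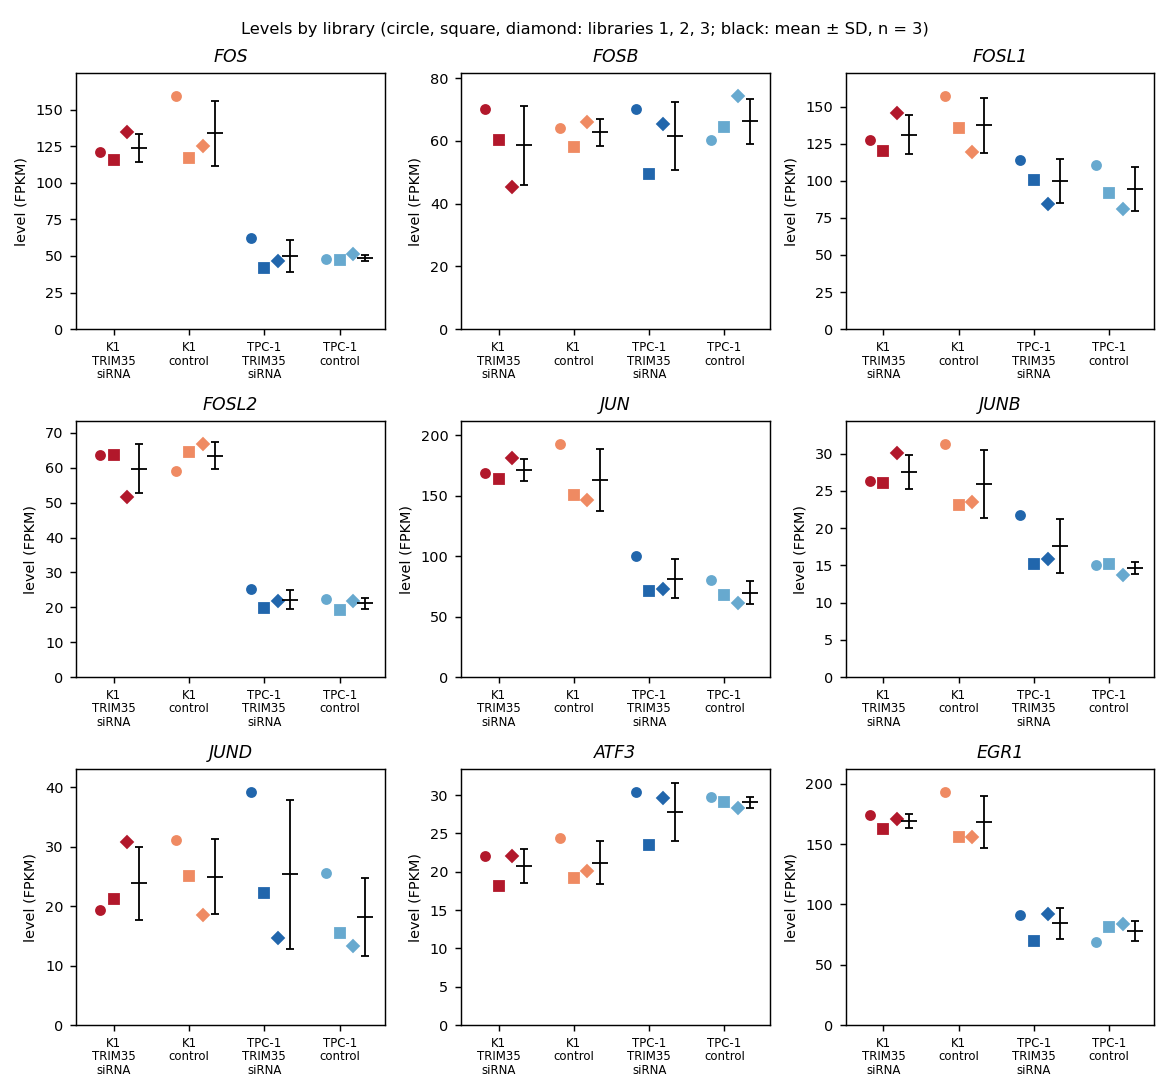
Level of each member in FPKM (vertical axis, starting at 0) in each of the 12 libraries, by group; circles, squares and diamonds are libraries 1, 2 and 3, and the black mark is the mean ± SD of 3 libraries. Within a siRNA condition K1 and TPC-1 points separate for FOS, FOSL1, FOSL2, JUN, JUNB, EGR1 and, with K1 lower, ATF3, while siRNA and control points of 1 line overlap for every member.

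In the FOS family, K1 held more FOS and FOSL2 than TPC-1, a little more FOSL1 and about as much FOSB. FOS (ENSG00000170345, chromosome 14, 75278826 to 75282230, plus strand, hg38 throughout), the founding FOS subunit and a strong activator, measured 121, 116 and 134 FPKM in K1 siRNA libraries and 159, 117 and 125 FPKM in K1 controls. In TPC-1 it measured 62.2, 41.8 and 46.3 FPKM in siRNA libraries and 47.6, 47.3 and 51.0 FPKM in controls. K1 and TPC-1 libraries did not overlap, and siRNA and control libraries overlapped in both lines. The log2 fold change of K1 over TPC-1 was 1.22 (SE 0.17, adjusted p = 9.06e-06) in siRNA libraries and 1.37 (SE 0.17, adjusted p = 2.80e-06) in controls, by edgeR's quasi-likelihood test with Benjamini-Hochberg adjustment over the 17447 genes tested. A gene was called at an adjusted p under 0.05. In bulk RNA of a culture, more cells that express a gene and more RNA per cell cannot be told apart.

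FOSL2 (FRA-2, ENSG00000075426; chromosome 2, 28392448 to 28417317, plus strand), a FOS-related subunit with a weaker activation domain, had the largest difference between the lines among the 9. It measured 63.7, 63.7 and 51.6 FPKM in K1 siRNA libraries and 59.1, 64.4 and 66.7 FPKM in K1 controls. TPC-1 held 25.2, 19.7 and 21.7 FPKM in siRNA libraries and 22.4, 19.3 and 21.7 FPKM in controls. The lines were far apart and the siRNA groups overlapped their controls. K1 over TPC-1 was 2.52-fold in siRNA libraries (log2 1.33, SE 0.12, adjusted p = 7.65e-08) and 2.80-fold in controls (log2 1.49, SE 0.12, adjusted p = 2.18e-08). FOSL2 shares its position with FOSL2-AS1 on the opposite strand and with ENSG00000270640 on its own strand, both of which averaged 119 counts or fewer; whether counting used strand is not given in the sources used here, so the level of FOSL2 is uncertain by the reads these genes share.

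FOSL1 (FRA-1, ENSG00000175592; chromosome 11, 65892049 to 65900573, minus strand), the subunit most tied to MAP kinase activity in carcinoma cells, had the highest mean of the FOS family in both lines, overlapping FOS in K1. It measured 128, 120 and 146 FPKM in K1 siRNA libraries and 157, 136 and 120 FPKM in K1 controls, against 114, 101 and 84.3 FPKM in TPC-1 siRNA libraries and 111, 91.8 and 81.0 FPKM in TPC-1 controls. Each K1 group lay just above its TPC-1 counterpart without overlap. The log2 fold change of K1 over TPC-1 was 0.45 in controls (SE 0.17, adjusted p = 0.0252), a 1.37-fold difference, and the call was lost without TPC-1 control library 2 (0.43, adjusted p = 0.0689) or 3 (0.35, adjusted p = 0.0891) and without K1 control library 1 (0.32, adjusted p = 0.114) or 2 (0.46, adjusted p = 0.0508). In siRNA libraries it was 0.31 (SE 0.17, adjusted p = 0.106) and was not called by edgeR with TMM scaling, but passed with upper-quartile scaling (0.44), with library totals (0.40), with genes of at least 1 FPKM alone (0.39) and by limma on log2(FPKM + 0.1) and log2(FPKM + 1) (0.40 each). In the same settings the median of all genes was 0.19 with upper-quartile scaling, 0.15 with library totals, 0.02 with genes of at least 1 FPKM and 0.14 and 0.07 in the limma fits, against 0.06 with TMM. With no filter on low counts, where FOSL1 was not called, it was 0.18.

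FOSB (ENSG00000125740, chromosome 19, 45467995 to 45475179, plus strand), which also makes the short form known for accumulating under chronic stimulation in neurons, was the FOS family member at a like level in both lines. It measured 70.2, 60.4 and 45.2 FPKM in K1 siRNA libraries and 64.2, 57.9 and 65.8 FPKM in K1 controls. The TPC-1 levels were 70.0, 49.4 and 65.2 FPKM in siRNA libraries and 60.2, 64.2 and 74.1 FPKM in controls. All 4 groups overlapped. K1 over TPC-1 was -0.17 in siRNA libraries (95% interval -0.49 to 0.15) and -0.18 in controls (-0.50 to 0.15), with an adjusted p of 0.329 and 0.309 by edgeR. The end of FOSB overlaps ERCC1 on the opposite strand, which averaged 1016.6 counts, so FOSB too is uncertain by shared reads.

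In the JUN family, JUN itself carried most of the mRNA and most of the difference between the lines. JUN (c-Jun, ENSG00000177606; chromosome 1, 58776845 to 58784048, minus strand), the subunit whose activity is raised by JNK phosphorylation, measured 169, 164 and 181 FPKM in K1 siRNA libraries and 192, 150 and 146 FPKM in K1 controls. TPC-1 held 99.8, 71.3 and 73.2 FPKM in siRNA libraries and 80.0, 67.8 and 61.2 FPKM in controls. The lines did not overlap and the siRNA groups overlapped their controls. K1 over TPC-1 was 1.98-fold in siRNA libraries (log2 0.99, SE 0.17, adjusted p = 7.97e-05) and 2.20-fold in controls (log2 1.14, SE 0.17, adjusted p = 2.05e-05).

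JUNB (ENSG00000171223, chromosome 19, 12791486 to 12793315, plus strand), often an antagonist of JUN at growth genes, followed at lower levels. It measured 26.4, 26.1 and 30.1 FPKM in K1 siRNA libraries and 31.2, 23.1 and 23.5 FPKM in K1 controls, against 21.8, 15.2 and 15.9 FPKM in TPC-1 siRNA libraries and 15.0, 15.2 and 13.7 FPKM in TPC-1 controls. K1 was above TPC-1 in every library. The log2 fold change was 0.56 in siRNA libraries (SE 0.17, adjusted p = 0.00702) and 0.74 in controls (SE 0.17, adjusted p = 0.00110). JUNB overlaps HOOK2 on the opposite strand, which averaged 134 counts, and is uncertain by the reads they share.

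JUND (ENSG00000130522, chromosome 19, 18279694 to 18281622, minus strand), the JUN protein that resting cells already hold and that tends to slow growth, varied too much between libraries to place the lines. It measured 19.4, 21.3 and 30.8 FPKM in K1 siRNA libraries and 31.2, 25.1 and 18.6 FPKM in K1 controls. The TPC-1 levels were 39.2, 22.3 and 14.7 FPKM in siRNA libraries and 25.6, 15.5 and 13.3 FPKM in controls. All 4 groups overlapped, with TPC-1 libraries 1 highest in both TPC-1 groups. K1 over TPC-1 was -0.16 in siRNA libraries (95% interval -0.84 to 0.53, adjusted p = 0.679) and 0.38 in controls (-0.31 to 1.07, adjusted p = 0.306), by edgeR. In controls the gene was called with no filter on low counts (0.40, adjusted p = 0.0387), and, in a choice made after the values were seen, without both K1 libraries 3 and both TPC-1 libraries 1 (0.91, adjusted p = 0.00168).

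ATF3 was the 1 member called lower in K1. ATF3 (ENSG00000162772, chromosome 1, 212565334 to 212620777, plus strand), a stress-induced zipper protein that pairs with JUN proteins and represses as a homodimer, measured 22.0, 18.2 and 22.0 FPKM in K1 siRNA libraries and 24.3, 19.2 and 20.1 FPKM in K1 controls. TPC-1 held 30.4, 23.5 and 29.6 FPKM in siRNA libraries and 29.8, 29.1 and 28.4 FPKM in controls. K1 lay below TPC-1 in each siRNA condition without overlap. The K1 level was 70.3% of TPC-1 in siRNA libraries (log2 -0.51, SE 0.14, adjusted p = 0.00519) and 68.4% in controls (log2 -0.55, SE 0.14, adjusted p = 0.00312).

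EGR1 (ENSG00000120738, chromosome 5, 138465479 to 138469303, plus strand), a zinc finger factor outside AP-1 with a pair of CArG boxes in its promoter, was higher in K1. It measured 174, 163 and 171 FPKM in K1 siRNA libraries and 193, 156 and 156 FPKM in K1 controls. In TPC-1 it measured 91.4, 69.5 and 92.0 FPKM in siRNA libraries and 68.5, 80.9 and 84.1 FPKM in controls. The lines were separate and the siRNA groups overlapped their controls. K1 over TPC-1 was 1.89-fold in siRNA libraries (log2 0.92, SE 0.15, adjusted p = 6.09e-05) and 2.03-fold in controls (log2 1.02, SE 0.15, adjusted p = 2.19e-05).

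Counted over the members, K1 against TPC-1 gave 5 higher and 1 lower of 9 in siRNA libraries and 6 higher and 1 lower of 9 in controls by edgeR. Among all 17447 genes, 35.9% were called higher and 32.4% lower in siRNA libraries (68.3% in all), and 35.8% higher and 32.1% lower in controls (67.9% in all), so a call between these lines was common. The median log2 fold change of the 9 was 0.56 in siRNA libraries and 0.74 in controls, against 0.06 over all genes in both. FPKM ranges of the lines were apart for 7 of the 9 members in either condition, where 67.3% of all genes were apart in siRNA libraries and 71.8% in controls. The calls for FOS, FOSL2, JUN, JUNB, ATF3 and EGR1 were kept in both conditions under each of the 24 alternatives run.

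**Figure D2:**
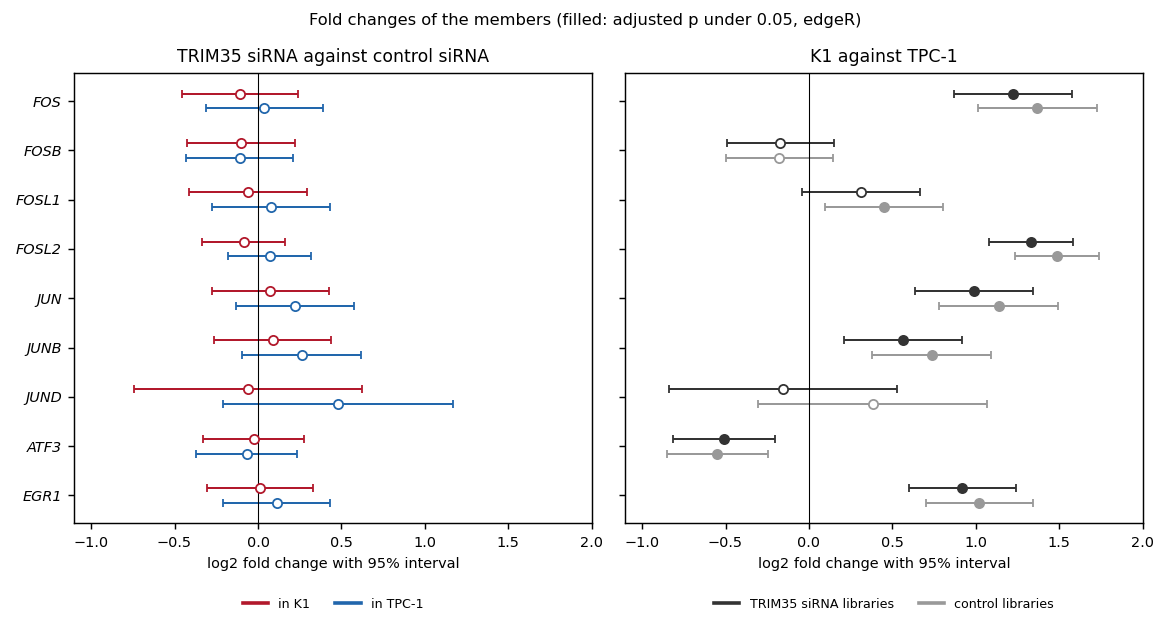
Log2 fold change of each member with its 95% interval (horizontal axis) for TRIM35 siRNA against control in K1 and TPC-1 (left) and for K1 against TPC-1 in siRNA and control libraries (right); filled points have an adjusted p under 0.05 by edgeR. Every interval on the left crosses 0, and on the right FOS, FOSL2, JUN, JUNB and EGR1 lie above 0 and ATF3 below it in both conditions.

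The FOS and JUN families were composed differently in the lines. Because FPKM are per length, each member's share of its family's summed FPKM could be compared library by library. The size of a share rests on the exonic length assigned to each gene and is approximate. FOS made up 33.3% ± 2.13 of the FOS family in K1 and 21.2% ± 1.32 in TPC-1 (SD, n = 6 libraries each, siRNA and control pooled), and FOSL2 16.1% ± 1.96 in K1 and 9.34% ± 0.422 in TPC-1. FOSB went the other way, with 15.8% ± 2.29 in K1 and 27.6% ± 3.46 in TPC-1, and FOSL1 made up 34.8% ± 2.49 in K1 and 41.9% ± 4.46 in TPC-1. The K1 family thus held more FOS and FOSL2 and proportionally less FOSB and FOSL1. Within the JUN family, JUN made up 76.7% ± 1.52 in K1 and 67.1% ± 3.11 in TPC-1, JUNB 12.2% ± 0.313 in K1 and 14.4% ± 1.26 in TPC-1, and JUND 11.1% ± 1.63 in K1 and 18.5% ± 4.10 in TPC-1. By an exact two-sided permutation test over libraries within siRNA condition (400 arrangements), p was 0.005 for FOS, FOSB, FOSL2, JUN and JUND, the smallest the design allows, 0.01 for JUNB and 0.025 for FOSL1. Adjusted over the 7 shares these were 0.007, 0.0117 and 0.025. Shares of 1 family sum to 100%, so the tests within a family are not independent.

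**Figure D3:**
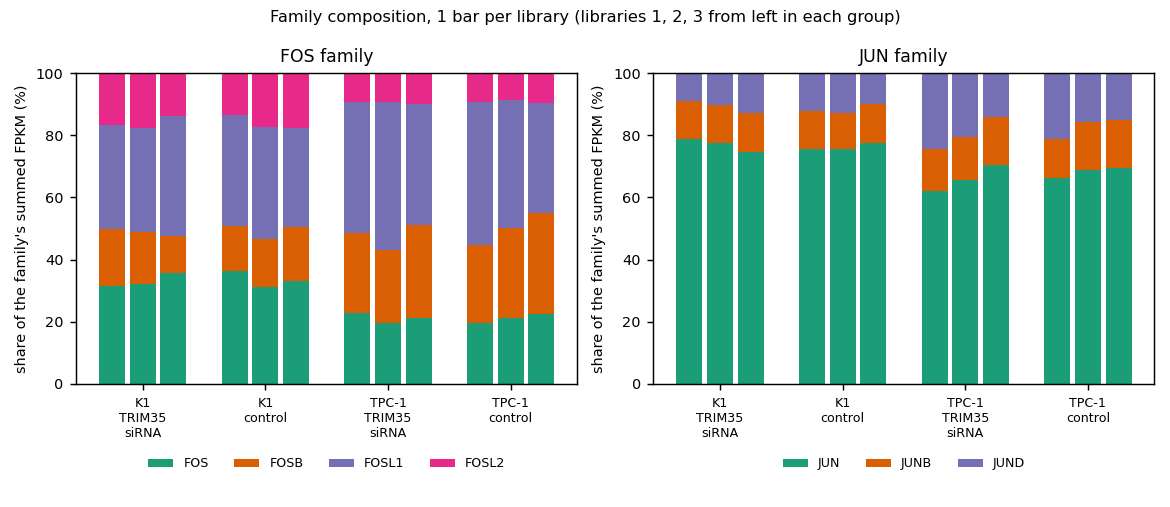
Share of the summed FPKM of the FOS family (left) and the JUN family (right) held by each member, in percent, with 1 stacked bar for each of the 12 libraries. K1 bars hold more FOS, FOSL2 and JUN, and TPC-1 bars more FOSB, FOSL1, JUNB and JUND, whereas siRNA and control bars of a line look alike.

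TRIM35 siRNA moved no member detectably. In K1 the log2 fold changes over control were -0.11 for FOS, -0.10 for FOSB, -0.06 for FOSL1, -0.09 for FOSL2, 0.07 for JUN, 0.09 for JUNB, -0.06 for JUND, -0.03 for ATF3 and 0.01 for EGR1. In TPC-1 they were 0.04 for FOS, -0.11 for FOSB, 0.08 for FOSL1, 0.07 for FOSL2, 0.22 for JUN, 0.26 for JUNB, 0.48 for JUND, -0.07 for ATF3 and 0.11 for EGR1. By edgeR 0 of the 9 were called in either line (adjusted p = 1 for each), 0 had an unadjusted p under 0.05, and 0% of the 17447 genes were called in K1 and 0% in TPC-1. At an unadjusted p under 0.05 there were 136 genes in K1 and 337 in TPC-1. DESeq2 and both limma fits also called 0 members. DESeq2 called 0 genes in K1 and 2 in TPC-1, DCN and SULF1, both higher, named here after their values were seen. DCN lay near the floor, at 0 FPKM in all TPC-1 controls and under 0.1 FPKM on average in TPC-1 siRNA libraries. Same-numbered siRNA and control libraries of TPC-1 deviated together. At all 3 numbers FOSL1, JUN and JUND had more FPKM in the siRNA library, and the other members did not. How many of all genes do so was not counted, and these 3 members deviated together, so they are not independent. With the replicate number as a block the log2 fold changes of FOSL1, JUN and JUND in TPC-1 were 0.08 (SE 0.15), 0.22 (SE 0.15) and 0.43 (SE 0.27), with an adjusted p of 1 each by edgeR.

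The intervals bound how large an effect of this transfection these libraries could hide. TRIM35 mRNA itself measured 87.9% of control in K1 and 84.8% in TPC-1, called in neither. The intervals thus do not bound the effect of a loss of TRIM35. For FOSL2, the most precisely measured member, the siRNA level over control lay between 0.793-fold and 1.12-fold in K1 and between 0.883-fold and 1.25-fold in TPC-1. FOS lay between 0.729-fold and 1.18-fold in K1 and between 0.805-fold and 1.31-fold in TPC-1, and EGR1 between 0.808-fold and 1.26-fold in K1 and between 0.866-fold and 1.35-fold in TPC-1. JUND had the widest intervals, from 0.599-fold to 1.54-fold in K1 and from 0.865-fold to 2.24-fold in TPC-1. A p that misses the threshold does not show that the levels were equal. Like the p-values, these intervals reflect only the scatter among libraries, possibly technical, and not that between separate transfections. FPKM ranges of siRNA and control libraries overlapped for all 9 members in both lines, where the ranges of 4.74% of all genes were apart in K1 and 4.6% in TPC-1.

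The effect of the TRIM35 siRNA was also compared between the lines, and averaged over them. The difference, K1 minus TPC-1, was below 0 for 7 of the 9 members, with a median of -0.14 against -0.01 over all genes, and ran from -0.54 for JUND (SE 0.46) to 0.04 for ATF3 (SE 0.20). It was also below 0 for 24 of the 33 other immediate early genes tested. The share of all genes below 0 was not counted. Many pairs of members deviated together between libraries, so their signs are not independent. By edgeR 0 members were called for the difference (adjusted p = 1.00 each) and 0 for the mean of the lines (adjusted p = 1 each), 0 members had an unadjusted p under 0.05 in either, and 0% of all genes were called in both. Over all genes 301 had an unadjusted p under 0.05 for the difference and 277 for the mean. DESeq2 called SULF1 and SLIT1 for the difference, both lower in K1 relative to TPC-1, chosen after their values were seen, and no member. Averaged over the lines, JUNB lay at 0.17 (SE 0.12), JUN at 0.15 (SE 0.12) and JUND at 0.21 (SE 0.23), the highest 3 of the 9. No family share was called different between siRNA and control libraries in K1 or TPC-1 (exact two-sided permutation p from 0.6 to 1.0 in K1 and 0.5 to 0.8 in TPC-1, where 3 against 3 libraries cannot go below 0.1), the largest gaps being FOSB at 26.4% ± 3.36 in siRNA and 28.8% ± 3.78 in control libraries of TPC-1 and JUND at 19.7% ± 5.15 in siRNA and 17.3% ± 3.39 in control libraries of TPC-1 (SD, n = 3).

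FOSL1, JUN and JUND deviated together between libraries of 1 group. With each group's mean log2 CPM (counts scaled to library size with TMM factors) removed, 29 of the 36 pairs of members had a Pearson r above 0 over the 12 libraries, with a median of 0.51 and a range from -0.44 to 0.94. Pairs of other genes were not counted, so these values are not shown to be particular to the members. JUND followed SH3BGRL3 (r = 0.993) and FOSL1 followed BAG3 (0.989) more closely than any member followed another. FOS alone had another member as its closest gene. The pairs FOSL1 and JUN (r = 0.890, rho = 0.860, p = 8.5e-04), FOSL1 and JUND (r = 0.930, rho = 0.909, p = 0.00156) and JUN and JUND (r = 0.896, rho = 0.818, p = 0.00156) passed a permutation test within groups after adjustment over 36 pairs (adjusted p = 0.0187 each). The permutation treats the libraries of each group as independent of other groups, whereas same-numbered TPC-1 siRNA and control libraries deviated together, so these p-values are too small. Without the 2 libraries farthest from the median the values of r were 0.831, 0.922 and 0.875. None of the 36 passed by Spearman's rho, where the smallest adjusted p was 0.0562 and the unadjusted p of these pairs were 0.00876, 0.00156 and 0.0152. The highest r of all, for FOS and JUNB (0.936, rho = 0.930, permutation p = 0.03, adjusted p = 0.0901), did not pass. Within each line these 4 pairs kept a positive r, the values in 6 K1 libraries being 0.950, 0.968, 0.900 and 0.992, and in 6 TPC-1 libraries 0.814, 0.940, 0.924 and 0.834.

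Some pairs with FOSL2 or EGR1 had r of opposite sign in the lines. FOSL2 deviated against JUND, FOSL1 and FOS in K1 (r = -0.855, -0.865 and -0.840 over 6 libraries) and with them in TPC-1 (r = 0.560, 0.282 and 0.803). Its own deviations in K1 were small, from -0.098 in siRNA library 3 to 0.058 in siRNA library 2, in log2. EGR1 moved with FOSL1 in K1 (r = 0.913) and against it in TPC-1 (r = -0.694), while EGR1 and FOSB moved together in TPC-1 (r = 0.924) and not in K1 (r = -0.021). Other pairs had the same sign in both lines, such as FOSL2 and FOSB (r = 0.602 in K1 and 0.555 in TPC-1), EGR1 and ATF3 (0.940 in K1 and 0.664 in TPC-1) and EGR1 and FOS (0.967 in K1 and 0.524 in TPC-1). These are descriptions over 6 libraries each, and the difference between the lines was not tested. JUNB deviated by 0.34 in K1 control library 1, 0.28 in TPC-1 siRNA library 1 and 0.24 in K1 siRNA library 3, and FOS by 0.32, 0.29 and 0.23 in the same libraries. K1 control library 1 was also above its group for JUN, FOSL1, JUND, ATF3, EGR1 and FOSB, and K1 siRNA library 3 was above its group for 7 of the 9, FOSB and FOSL2 being below.

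**Figure D4:**
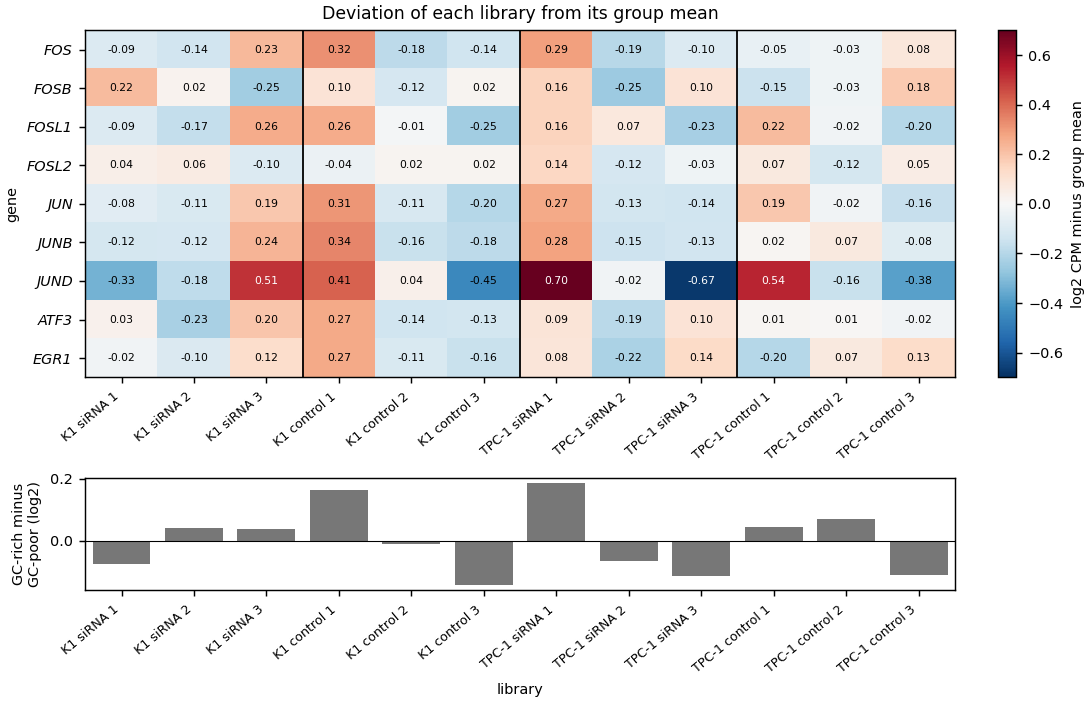
Top, log2 CPM of each member in each library minus the mean of its group (red above, blue below, with the value in each cell); bottom, the median deviation of the most GC-rich 20% of genes minus that of the least GC-rich 20% in the same library, in log2. JUND has the strongest colours, from 0.70 in TPC-1 siRNA library 1 to -0.67 in TPC-1 siRNA library 3, and FOSL2 the palest.

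JUND was by far the least steady member and FOSL2 the steadiest. The within-group SD of log2 CPM was 0.52 for JUND, higher than 97.9% of the 6427 genes with a mean of at least 5 FPKM, and 0.10 for FOSL2, higher than 7.6% of them. The other 7 lay between 0.18 and 0.23, around the median of 0.19 over those genes. JUND also has the most GC-rich transcript of the 9 (69.7% GC, against 46.7% for ATF3 to 64.9% for JUNB in the others), and like JUN and JUNB its longest annotated transcript has 1 exon. JUND deviated from its group by -0.33, -0.18 and 0.51 in K1 siRNA libraries, 0.41, 0.03 and -0.45 in K1 controls, 0.70, -0.02 and -0.67 in TPC-1 siRNA libraries and 0.53, -0.16 and -0.38 in TPC-1 controls. The GC gap, the median deviation of the most GC-rich 20% of genes minus that of the least GC-rich 20%, was -0.07, 0.04 and 0.04 in K1 siRNA libraries, 0.16, -0.01 and -0.14 in K1 controls, 0.19, -0.07 and -0.11 in TPC-1 siRNA libraries and 0.04, 0.07 and -0.11 in TPC-1 controls, in log2. JUND and the GC gap had the same sign in 9 of the 12 libraries, the others being library 2 of 3 groups. With within-group offsets for GC content, added after the data had been seen, the SE of the siRNA effect in TPC-1 was 0.27 for JUND against 0.32 without them, and 0.11 for JUNB against 0.17. Offsets taken from deviations of the same libraries can lower the SE by themselves. The part of GC content in the spread of JUND was thus not tested.

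The genes whose deviations were most like each member's were sought among 11839 genes with a mean of at least 1 FPKM. JUND was followed most closely by SH3BGRL3 (r = 0.993), the ribosomal protein pseudogene RPLP0P9 (0.992) and SAT2 (0.992), and FOSL1 by BAG3 (0.989), SUPT3H (0.986) and CD81 (0.985). The gene most like FOS was JUNB, another member (0.936), followed by TRAPPC6A (0.921) and PTHLH (0.914), and JUNB was followed by ALDH3B1 (0.972), PLAAT3 (0.954) and the immediate early gene IER2 (0.950). JUN was followed by ALDH3B1 (0.967), TESK1 (0.955) and SOCS3 (0.954), so that JUN and JUNB shared their most similar gene. FOSL2 was followed by ZNF516 (0.964), HIPK2 (0.955) and ZNF805 (0.955), and FOSB by ENSG00000267904 (0.964), EHBP1L1 (0.926) and ACVR1B (0.926). ATF3 was followed by RIN3 (0.934), ZNF395 (0.933) and ORAI2 (0.903), and EGR1 by NUCB1 (0.937), SHC1 (0.932) and ZNF398 (0.932). All r are over the 12 libraries and share their depth and composition.

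Genes around AP-1 differed between the lines as well. Of 27 genes known to carry AP-1 sites, 26 were tested; in siRNA libraries 20 were called higher and 1 lower in K1, and in controls 20 higher and 2 lower, where 35.9% of all genes were called higher and 32.4% lower in siRNA libraries and 35.8% higher and 32.1% lower in controls. The median log2 fold change was 2.71 in siRNA libraries and 2.42 in controls, against 0.06 over all genes in both. This list and those that follow were chosen with earlier results of these data known, so their counts are not independent evidence. Those with the smallest p in controls included the collagenase MMP1, the stromelysin MMP3 and the cytokine IL24. IL24 measured 626, 628 and 673 FPKM in K1 controls and 0.90, 0.68 and 0.78 FPKM in TPC-1 controls, and MMP1 measured 865, 889 and 945 FPKM in K1 controls and 0.91, 1.02 and 1.16 FPKM in TPC-1 controls. IL24 and MMP1 thus lay at or under 1.16 FPKM in TPC-1 controls. The 2 lower in controls were the calcium-binding protein gene S100A2 (-2.77) and PLAU, urokinase (-0.40, lost with upper-quartile scaling and without K1 control library 3, at -0.26 and -0.33), chosen after their values were seen.

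Of 22 upstream kinases and factors tested, 3 were called higher and 15 lower in K1 siRNA libraries and likewise 3 and 15 in K1 controls, with a median of -0.45 and -0.50. Of all genes in controls 35.8% were called higher and 32.1% lower. MAP3K1, a kinase that feeds JNK, was lower at 2.00, 2.70 and 2.91 FPKM in K1 controls and 7.81, 7.13 and 7.82 FPKM in TPC-1 controls (log2 -1.68, SE 0.13, adjusted p = 1.19e-08 by edgeR). RPS6KA2, a kinase of the RSK family downstream of ERK, was higher at 12.2, 12.1 and 13.8 FPKM in K1 controls and 2.94, 3.49 and 3.82 FPKM in TPC-1 controls (log2 1.79, SE 0.14, adjusted p = 1.76e-08). The other 2 called higher were MAP2K2 (0.86) and RPS6KA3 (0.47), named after their values were seen. MAPK10, the JNK isoform of neurons, lay at -2.49 (SE 0.33) with under 0.2 FPKM in both lines, and the nuclear kinase RPS6KA5 at -1.08 (SE 0.14).

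**Figure D5:**
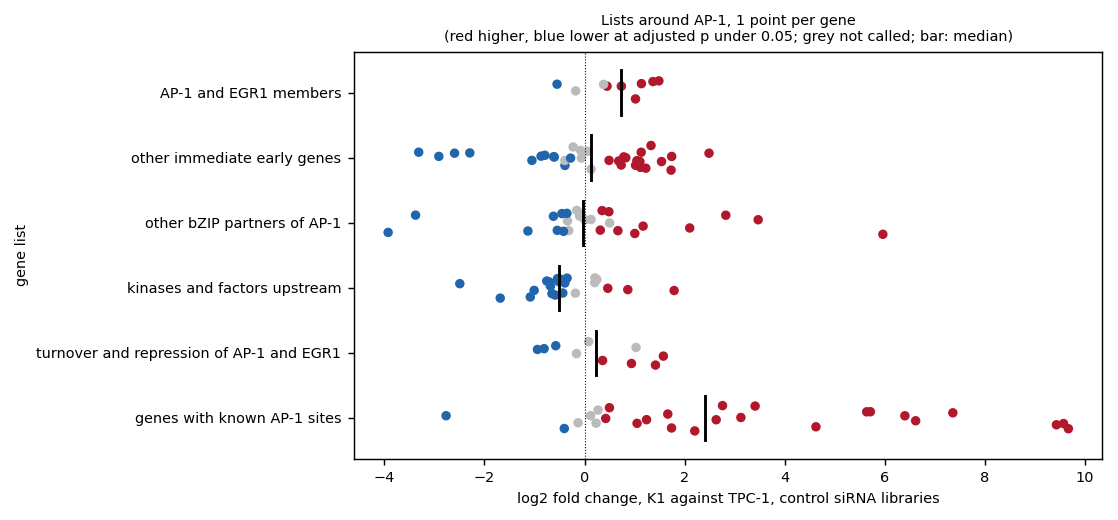
Log2 fold change of K1 over TPC-1 in control libraries (horizontal axis) for every tested gene of 6 lists, 1 point per gene, with red and blue points called higher and lower by edgeR, grey points not called and a bar at the median. The genes with AP-1 sites reach from -2.77 to 9.67, and the members stay between -0.55 and 1.49.

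Of 26 tested zipper genes, 10 were called higher and 6 lower in K1 siRNA libraries and 10 higher and 8 lower in K1 controls (median -0.07 and -0.03). In controls 18 of the 26 were thus called, near the 67.9% among all genes. CEBPB, an inflammatory activator, lay at 2.10 (SE 0.26), CEBPA at -3.92 (SE 0.49) and BATF2 at 3.47 (SE 0.46), the last 2 under 1 FPKM in both control groups. Of 33 tested immediate early genes, 16 were called higher and 12 lower in siRNA libraries and 16 higher and 11 lower in controls (median 0.01 and 0.13), where 67.9% of all genes were called in controls. NR4A3, an orphan nuclear receptor, lay at 2.49 (SE 0.15), and DUSP1, a phosphatase that switches off MAP kinases, at 1.73 (SE 0.17), with 389, 291 and 319 FPKM in K1 controls and 78.3, 96.6 and 107 FPKM in TPC-1 controls. MYC and the kinase SIK1 went the other way: MYC measured 10.4, 8.42 and 8.23 FPKM in K1 controls and 38.4, 42.6 and 43.6 FPKM in TPC-1 controls (log2 -2.29, SE 0.15), and SIK1 lay at -2.91 (SE 0.27).

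Of 10 genes that turn over or repress these factors, 4 were called higher and 3 lower in K1 controls (median 0.22), again near the 67.9% of all genes called. NAB1 and NAB2, corepressors that EGR1 recruits, were higher at 1.58 (SE 0.11) and 0.94 (SE 0.15), as was ITCH, a ubiquitin ligase for JUN proteins, at 1.42 (SE 0.12). NCOR1, a general corepressor, was lower at -0.81 (SE 0.16). MEN1, whose product binds JUND, lay at 0.36, COP1, part of a ubiquitin ligase for JUN, at -0.58 and KLHL25 at -0.94, all called in controls and named after their values were seen. The MEN1 call was lost with no filter on low counts (0.38) and without TPC-1 control library 1 (0.32) or K1 control library 2 (0.30), and the KLHL25 call with upper-quartile scaling (-0.81) and without TPC-1 control library 1 (-0.80) or 2 (-0.80) or K1 control library 3 (-0.65), and without both K1 libraries 3 and both TPC-1 libraries 1 (-0.51). In the comparisons of siRNA with control 0 genes of any of these lists were called by edgeR in K1 or TPC-1, with 1 upstream gene and 1 other immediate early gene at an unadjusted p under 0.05 in K1 and 2 genes with AP-1 sites and 1 other immediate early gene in TPC-1.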

How the data were processed

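RNA-seq of 12 libraries was analysed from 1 deposited table that pairs each gene of hg38 with raw read counts and FPKM made by the authors; adapters were trimmed with cutadapt 1.9.1 and hg38 was the build, per the submitters' processing notes, with aligner, counter and strand setting not given in the sources used here. All value columns mapped to a sample. Tests on the deposited counts used edgeR 4.0.16 under R 4.3.3 (TMM, filterByExpr, quasi-likelihood test, 1 mean per group, 12 libraries, 8 residual degrees of freedom). Benjamini-Hochberg adjustment ran over 17447 genes, 44359 others not being tested, and a gene was called under 0.05. SE was the log2 fold change over the root of F, and intervals cover 95%. The FPKM deposited by the authors served for levels and shares and for limma 3.58.1 on log2(FPKM + 0.1) and log2(FPKM + 1), a scale that understates changes of low genes. Deviations were log2 CPM with a prior count of 0.5. GC content came from GENCODE 29 transcripts (94.3% of gene IDs matched), promoters from RefSeq on GRCh38.p14.

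The members and the gene lists were chosen with earlier results of these data known. Beside the members and TRIM35, up to 4 genes of each list with the smallest p in a comparison were named, all thyroid markers, and for each member the 3 genes with the highest r. Some genes that this rule names are not reported here. Replicates of a group differed by more than counting noise (chi-square per degree of freedom from 3.97 to 58.94), and none was counted as a duplicate. Same-numbered TPC-1 siRNA and control libraries deviated together (r = 0.751, 0.385 and 0.840), but no label gives a pairing. Within K1 libraries of unlike number reached 0.802 and 0.834, so such r do not establish a pairing. The replicate block, which groups libraries by number, changed no call of a member. Alternatives were RLE, upper-quartile and total-count scaling, DESeq2 1.42.0, other filters, limma, only the groups compared, the replicate block and leaving out each library. GC offsets in 20 bins and leaving out both K1 libraries 3 and both TPC-1 libraries 1 were added after seeing the data. Of the fits, only edgeR's for siRNA against control in TPC-1 was tried on simulated counts, drawn independently for each library. The outcome is not reported here.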

Additional observations from a re-analysis of the deposited data

How the results depend on the processing

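The K1 over TPC-1 calls for FOS, FOSL2, JUN, JUNB, ATF3 and EGR1 and the differences in family shares between the lines kept their direction and call in every alternative run, and no member was called for siRNA against control in any of them. Over the 54 member results, 1199 of 1278 recomputed values kept direction and side of the threshold, 4 lost and 7 gained a call, and 68, none of them called, changed sign. The 95% intervals of all siRNA effects of the members include 0, and the spread between libraries and 3 libraries per group limit what could be detected. Genes other than members called for siRNA against control were few and depended on the tool and filter: by DESeq2, 2 higher in TPC-1 and 2 lower for the difference K1 minus TPC-1, against 0 and 0 by edgeR. With no filter beyond 1 count there were 2 higher in TPC-1, 1 higher and 1 lower in K1, 4 lower for the difference and 1 higher for the mean of the lines; leaving out single libraries gave 0 to 1 lower for the difference. The cause was not tested.

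Leaving out both K1 libraries 3 and both TPC-1 libraries 1 turned the sign of the log2 siRNA effect of FOS in TPC-1 (-0.121), of FOSB (0.040), JUN (-0.103), JUNB (-0.112) and EGR1 (-0.112) in K1, and of the mean over lines of FOSL1 (-0.078), FOSL2 (0.022), JUND (-0.061) and EGR1 (-0.054). It also turned the difference between lines of ATF3 (-0.095) and TRIM35 (-0.187), and K1 over TPC-1 of FOSB in siRNA libraries (0.036). EGR1 in K1 was -0.001 with no filter. The difference of FOSB was -0.004 with upper-quartile scaling, -0.015 with no filter and -0.003 in both limma fits, and the mean of FOSL2 was 0.008 with upper-quartile scaling and 0.001 among genes of at least 1 FPKM. The correlation of FOSB and JUNB was -0.032 with RLE.

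Leaving out each library in turn changed signs within these ranges. In K1 the siRNA effects in log2 ran from -0.211 to 0.066 for FOS, -0.221 to 0.029 for FOSB, -0.183 to 0.074 for FOSL1, -0.024 to 0.241 for JUN, -0.022 to 0.275 for JUNB, -0.336 to 0.163 for JUND, -0.111 to 0.114 for ATF3 and -0.068 to 0.15 for EGR1. In TPC-1 they ran from -0.111 to 0.131 for FOS, -0.177 to 0.006 for FOSB, -0.005 to 0.227 for FOSL1 and -0.104 to 0.020 for ATF3. The difference between lines ran from -0.262 to 0.015 for FOS, -0.111 to 0.125 for FOSB, -0.280 to 0.007 for JUN, -0.296 to 0.001 for JUNB, -0.056 to 0.168 for ATF3, -0.202 to 0.025 for EGR1 and -0.062 to 0.18 for TRIM35. The mean over lines ran from -0.109 to 0.058 for FOS, -0.050 to 0.083 for FOSL1, -0.041 to 0.030 for FOSL2 and -0.083 to 0.030 for ATF3. K1 over TPC-1 of JUND in siRNA libraries ran from -0.443 to 0.255. Shares, siRNA minus control in percentage points, ran in K1 from -1.65 to 0.949 for FOS, -1.46 to 1.72 for FOSB, -1.14 to 1.49 for FOSL1, -1.41 to 1.07 for FOSL2, -0.115 to 1.83 for JUN and -0.00332 to 0.420 for JUNB. In TPC-1 they ran from -0.620 to 0.981 for FOS, -0.832 to 4.37 for FOSL1, -1.22 to 0.310 for JUNB and -0.0252 to 5.08 for JUND.

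With the replicate number as a block, JUND was at -0.07 (SE 0.27) in K1 and 0.43 (SE 0.27) in TPC-1 for siRNA against control, and the block changed no call of a member. Each TPC-1 siRNA library correlated best with the control of its own number. Between the lines, and within K1 (r = -0.802, 0.086 and -0.829), same-numbered libraries shared only a number; K1 siRNA libraries 1 and 3 correlated best with control libraries 3 (0.802) and 1 (0.834), a hint from the data that the labels do not give. With the block, 6172 genes were called higher and 5506 lower in K1 controls over TPC-1 controls, against 6250 and 5603 without it.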
